A study of Mus musculus with 119 samples.

Results

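The data described here are the RNA-seq libraries of bone marrow-derived macrophages (BMDMs), cells grown from mouse bone marrow in L-cell conditioned medium, 1 h after the addition of LPS. Of the 119 libraries of the series, 10 belong to this comparison: Elk1-/-Elk4-/- replicates 1 to 4, which lack the transcription factors ELK1 and ELK4, and wild-type (WT) replicates 4 to 9. They were chosen by genotype and time in the sample labels, and no measured value entered the choice. Both groups were given LPS at 100 ng/ml and no inhibitor. The same 4 and 6 replicate numbers without LPS served to show what differed before the stimulus. The spread used in the tests was estimated from 62 libraries, those of both genotypes and of Map3k8 D270A BMDMs at all times. The Map3k8 D270A cells, which carry kinase-dead TPL-2, are also set beside the mutant at 1 h. The study asked which of the genes controlled by the kinase TPL-2 and its MAPK pathway depend on these factors.

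The WT strain was labelled C57BL/6(NIMR), and no cell type-specific driver is described for the Elk1-/-Elk4-/- mice. The labels place the WT libraries in the TPL experiment and the Elk1-/-Elk4-/- libraries in another, named dKO ELKSAP, so genotype and experiment cannot be told apart. The labels do not say that replicates came from separate animals, and p-values then measure only the spread between these samples. In a principal component analysis of the 20 libraries of both times, the first component, with 58.5% of the variance, separated libraries with LPS from those without. At 1 h it was 30.4 to 32.8 in WT replicates 4 to 6 and 23.0 to 25.8 in WT replicates 7 to 9. The Elk1-/-Elk4-/- libraries, at 22.4 to 23.4, stood near the latter. The second component, with 24.9% of the variance, separated the Elk1-/-Elk4-/- libraries (18.1 to 25.4) from the WT libraries (-18.6 to -6.61). The third separated WT replicates 4 to 6 (7.72 to 9.26) from WT replicates 7 to 9 (-13.4 to -6.59). The labels name no batch within WT. Values against 1 or both of these sets are given for described genes whose call by adjusted p, or sign, at 1 h depended on them. The size of other differences also moved with the set, for some genes across the threshold of 1, and is not given for each. At 2 h of LPS only 4 WT libraries, replicates 4 to 7, were available. Differences at 2 h therefore rest on another mix of the WT sets than those at other times. The part of this mix in changes from 1 h to 2 h was not tested.

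LPS binds TLR4 on macrophages and activates NF-kB, interferon regulatory factors, and the MAP kinases. The ERK branch, which in macrophages runs through TPL-2, phosphorylates the ternary complex factors ELK1, ELK3, and ELK4. These are ETS-family proteins that sit with serum response factor (SRF) on the promoters of immediate early genes, and phosphorylation turns them into strong activators. The proteins made from immediate early genes, such as EGR1 and the AP-1 factors, then act on a later wave of genes.

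Values are levels on the log2 scale of the deposited table, and a difference is the mean of the Elk1-/-Elk4-/- libraries minus the mean of the WT libraries on that scale. The transformation behind the scale is not stated, and it may draw differences between libraries together. A gene was called when its adjusted p (limma, Benjamini-Hochberg over the 11884 genes tested) was below 0.05 and its difference reached 1 in size. "Rose" and "fell" are used of an adjusted p below 0.05.

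The 2 deleted genes were low in all Elk1-/-Elk4-/- libraries. Elk1 (chrX:20933395-20950608, GRCm38.p6) ranged from 9.30 to 9.49 in the WT libraries, with a median of 9.40, and stood at 6.42, 6.30, 6.30, and 6.28 in Elk1-/-Elk4-/- replicates 1 to 4. Its difference was -3.07 ± 0.05 (SE), with an adjusted p of 6.78e-47. Elk4 (chr1:132007577-132026448) ranged from 7.90 to 8.31 in WT, with a median of 8.0, and stood at 5.78, 5.85, 5.61, and 5.81 in the mutant, a difference of -2.28 ± 0.07 (adjusted p = 6.59e-32). The groups did not overlap for either gene. The labels of all 10 libraries were thus matched by the deleted genes.

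Transcripts of the remaining partners moved little. Elk3, the third ternary complex factor, fell by 0.21 at 1 h (adjusted p = 2.23e-07), from 10.61 to 10.79 in WT to 10.48, 10.48, 10.51, and 10.49. Without LPS its difference was 0.00 (adjusted p = 0.93), and its LPS response was lower by a tested difference of -0.21 (adjusted p = 0.00548). That response call was lost against WT replicates 7 to 9 alone (difference -0.15). Srf, which encodes the shared partner of these factors, fell by 0.18 at 1 h and by 0.19 without LPS. Mkl1 and Mkl2 encode the actin-regulated SRF cofactors. Mkl2 rose by 0.32, and Mkl1 gave 0.10 (adjusted p = 0.295), with -0.05 against WT replicates 4 to 6 and 0.24 (adjusted p = 0.0128) against WT replicates 7 to 9.

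At 1 h of LPS, 79 genes were lower and 103 higher in Elk1-/-Elk4-/- BMDMs, 0.665% and 0.867% of the genes tested. Of the higher genes, 9 had passed the filter on low values through mutant libraries only. The libraries of the 2 genotypes did not overlap for 73 of the lower and 101 of the higher genes. Over all genes tested, 18.2% had all Elk1-/-Elk4-/- libraries below all WT libraries and 18.5% had them above. The lower genes at the threshold were Nr4a1 (-1.0) just inside and Elmsan1 (-0.99) just outside, and the higher genes were Bst1 (1.0) and Itgb7 (0.99).

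Most of these genes already differed before LPS. Without LPS 55 genes were lower (0.463%) and 92 higher (0.774%). Of the 79 genes lower at 1 h, 42 were among those lower without LPS (53.2% of the first list and 76.4% of the second), and of the 103 higher genes 79 were (76.7% and 85.9%). No gene was called in opposite directions at the 2 times. At 0.5 h 53 genes were lower (0.446%) and 86 higher (0.724%), and at 2 h 114 were lower (0.959%) and 134 higher (1.13%). The counts at 2 h rest on 4 WT libraries, against 6 at each other time, and are not matched to the others in WT replicates. Calls at all 4 times were made for 28 lower and 61 higher genes.

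**Figure D1:**
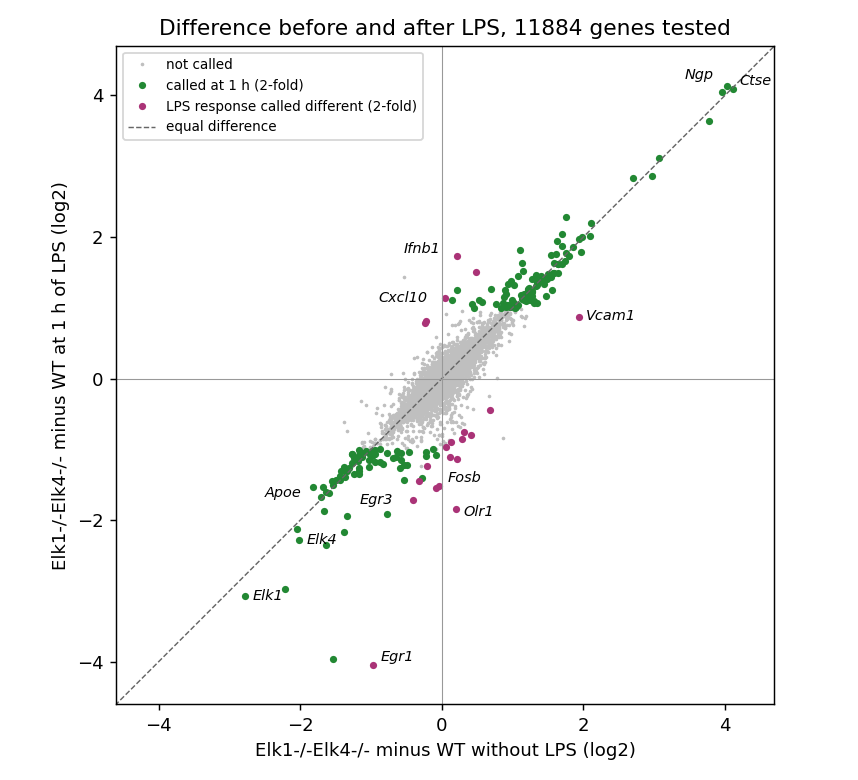
Each point is 1 of the 11884 genes tested, by its Elk1-/-Elk4-/- minus WT difference without LPS (x axis, log2) and at 1 h of LPS (y axis, log2), with green for genes called at 1 h, purple for genes whose LPS response was called different, and a dashed line where both differences are equal. Ngp and Ctse lie on the line near 4.1, whereas Egr1 lies at -0.97 and -4.04 and Ifnb1 at 0.22 and 1.73.

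The test that separates the 2 kinds of gene is that of the LPS response, the change from no LPS to 1 h in Elk1-/-Elk4-/- cells minus that in WT cells. It called 16 genes with a lower response (0.135%) and 5 with a higher response (0.0421%) in the mutant. By adjusted p alone these were 112 (0.942%) and 48 (0.404%). Same-numbered libraries deviated together, but for some WT libraries a differently numbered one was closer, so the pairing in WT is uncertain. With the replicate number as a fixed block the counts were again 16 and 5, but 215 (1.81%) and 134 (1.13%) by adjusted p alone. Where the block changed the call of a gene described here, its adjusted p is given with the gene. The 16 were Egr1, Olr1, Fosb, Tnfsf4, Csf2, Egr3, Kdm6b, Flrt3, Arc, Nfkbid, Bcl2a1a, Nr4a3, Vcam1, Clcf1, Fosl1, and Fjx1, and the 5 were Ifnb1, Cxcl10, Id3, Slc5a3, and Il1f9. Of the 16, 9 were also called lower at 1 h, and Vcam1 was the exception in being called higher without LPS. In WT cells 380 genes were called as induced by LPS at 1 h (3.20%) and 112 as repressed (0.942%), and in Elk1-/-Elk4-/- cells 324 (2.73%) and 93 (0.783%).

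Among the Egr and Nr4a transcription factors and their Nab corepressors, 5 of 8 genes tested fell at 1 h and 1 rose, where 26.2% and 27.2% of all genes did by the same adjusted p. The same 5, Egr1, Egr3, Nr4a1, Nr4a3, and Nab2, had a lower LPS response (62.5%, against 0.942% of all genes), and none had a higher one. The median difference over the 8 was -0.88 at 1 h, beside 0.01 over all genes tested. Egr4 was in the table at too low a level to be tested.

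Egr1 (chr18:34861207-34864956), a zinc finger factor induced within minutes by growth factors and LPS, had the largest fall of any gene tested. Its level ran from 11.19 to 11.62 in the WT libraries, with a median of 11.36, and was 7.33, 7.45, 7.52, and 7.11 in Elk1-/-Elk4-/- replicates 1 to 4. All mutant libraries lay more than 3 units below the lowest WT library. The difference was -4.04 ± 0.15 (SE; adjusted p = 4.60e-29), against -0.97 without LPS, -4.45 at 0.5 h, and -2.55 at 2 h. LPS raised Egr1 by 3.41 in WT cells at 1 h and by 0.34 in mutant cells, and the difference between these responses was -3.07 ± 0.21 (adjusted p = 6.85e-16).

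Egr3, a related factor, ranged from 9.79 to 10.21 in WT and stood at 8.33, 8.29, 8.21, and 8.41 in the mutant. The groups were far apart, with a difference of -1.72 ± 0.15 (adjusted p = 1.25e-13), and the response to LPS was lower by -1.31 (adjusted p = 5.61e-05). Unlike Egr1, Egr3 still rose in the mutant, by 1.72 against 3.03 in WT. Egr2, the third family member tested, showed no such fall. It ranged from 12.27 to 12.70 in WT and stood at 12.58, 12.66, 12.61, and 12.55, within the WT range, with a difference of 0.08 (adjusted p = 0.714). At 0.5 h, however, the difference for Egr2 was -0.61.

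Nr4a1, an orphan nuclear receptor of the immediate early class, ran from 10.48 to 11.11 in WT and stood at 9.72, 9.79, 9.53, and 9.78 in the mutant. The difference was -1.0 ± 0.15 (adjusted p = 2.28e-07), and without LPS it was -0.12. Its lower response (-0.88, adjusted p = 0.016) missed the threshold when any of Elk1-/-Elk4-/- replicates 1, 3, or 4 was left out. Nr4a3, a relative of Nr4a1, fell by 0.76 (-0.47 and adjusted p = 0.0778 against WT replicates 7 to 9 alone), and Nr4a2 gave -0.15 (adjusted p = 0.236). The response of Nr4a3 was lower by -1.07 (adjusted p = 0.0162) but not against WT replicates 7 to 9 alone (-0.76, adjusted p = 0.615), and the call was also lost without any of Elk1-/-Elk4-/- replicates 1, 2, or 3 or WT replicates 4 or 6. Nab2, whose product binds and restrains EGR proteins, fell by 1.05 at 1 h and by 0.57 without LPS. Its response call (-0.48, adjusted p = 0.0472) was lost on leaving out any 1 library except WT replicates 8 and 9.

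The AP-1 factors are dimers of FOS and JUN family proteins, with ATF and MAF proteins as further partners. Of 12 tested, 7 fell at 1 h (58.3%, against 26.2% of all genes tested) and none rose (27.2%), with a median of -0.25, and 3 had a lower LPS response (Fos, Fosb, and Fosl1), where 0.942% of all genes did, or 5 with the replicate block (41.7%, against 1.81%). The family divided by member. Fosb ranged from 8.06 to 9.0 in WT, with a median of 8.46, and stood at 6.95, 6.98, 6.92, and 6.87, a difference of -1.52 ± 0.16 (adjusted p = 2.78e-11). LPS raised it by 1.84 in WT and 0.35 in the mutant, and without LPS the genotypes differed by -0.04.

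Fosl1, which encodes FRA-1, stood at 4.57 to 5.78 in WT and 3.95, 3.93, 3.55, and 4.01 in the mutant. Its difference was -1.23 ± 0.17 (adjusted p = 2.57e-08). Across the alternative fits it ran from -1.63 to -0.84, so it did not always reach 1 in size, although it passed by adjusted p in each. The lower response of Fosl1, at -1.02, lost its call without Elk1-/-Elk4-/- replicate 3 (adjusted p = 0.102). It was also lost when the Map3k8 D270A libraries and other times were not used to estimate the spread (0.106). Fosl2, which encodes FRA-2, did not pass the test at 1 h, at 11.16 to 11.36 in WT and 11.12, 11.15, 11.09, and 11.28 in the mutant (-0.09, adjusted p = 0.557). Its difference at 2 h was -1.44.

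Fos itself differed little at 1 h. It ran from 11.17 to 11.85 in WT and stood at 11.36, 11.27, 11.27, and 11.27 in the mutant, inside the WT range. The difference of -0.24 ± 0.10 (adjusted p = 0.0468) was -0.02 against WT replicates 4 to 6 and -0.46 against WT replicates 7 to 9, and the call was lost on leaving out any 1 library except WT replicates 4 and 5. Its lower response of -0.60 (adjusted p = 0.0181) was lost without Elk1-/-Elk4-/- replicates 1, 2, or 4 or WT replicate 8 and against WT replicates 4 to 6 alone. Both calls of Fos were also lost when only WT and Elk1-/-Elk4-/- libraries of the times compared were fitted (adjusted p = 0.126 at 1 h and 0.148 for the response). At 0.5 h, when Fos peaked in both genotypes, the difference was -0.82. Among the JUN genes, Junb fell by 0.60 and Jund by 0.84 with no overlap of libraries, and Jun gave -0.08 (adjusted p = 0.472). Jund already differed by -0.52 without LPS, and its response difference of -0.33 (adjusted p = 0.113) passed with the replicate block (adjusted p = 0.0379). Maff, a small MAF factor, fell by 0.65, and Atf3, an ATF factor, gave 0.03 (adjusted p = 0.72).

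**Figure D2:**
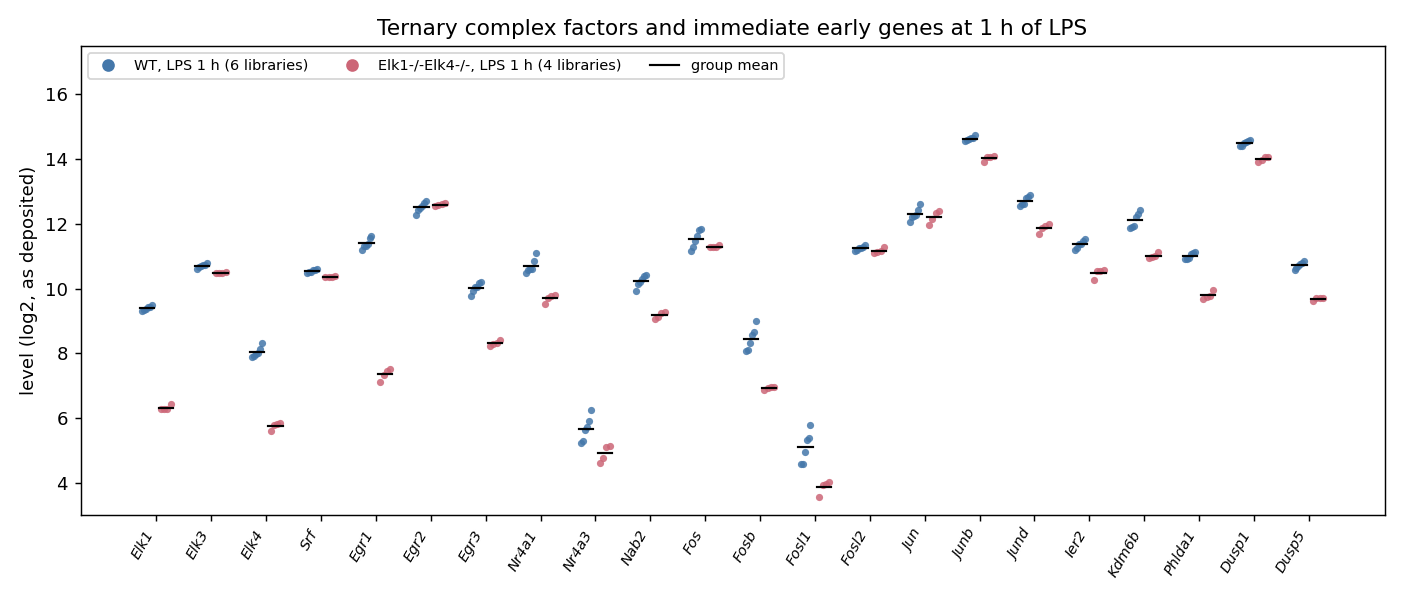
Levels at 1 h of LPS (y axis, log2 as deposited) of ternary complex factors, Srf, and immediate early genes, with 1 point per library, blue for the 6 WT and red for the 4 Elk1-/-Elk4-/- libraries, and a bar at each group mean. Mutant libraries of Egr1 lie between 7.11 and 7.52, below all WT libraries, while those of Egr2 and Fos lie within the WT range.

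Of 18 other immediate early genes, 14 fell (77.8%, against 26.2% of all genes tested), 1 (Mcl1) rose, and the median was -0.40. The LPS response was lower for 7 (38.9%, against 0.942% of all genes), or 10 with the replicate block (55.6%, against 1.81%), and higher for none. Kdm6b, a histone H3 lysine demethylase induced by LPS, ran from 11.87 to 12.44 in WT and stood at 11.00, 11.13, 10.97, and 10.95 in the mutant, a difference of -1.10 ± 0.16 (adjusted p = 6.25e-08) with 0.11 without LPS. Ier2, a nuclear protein of the immediate early class, ran from 11.20 to 11.55 in WT and stood at 10.56, 10.54, 10.56, and 10.26 (-0.89, adjusted p = 9.81e-13). Neither gene's groups overlapped, and both had a lower response (-1.21 and -0.91).

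Phlda1, a pleckstrin homology protein, fell by 1.22, from 10.91 to 11.12 in WT to 9.79, 9.95, 9.74, and 9.69. Its response difference of -0.70 did not pass (adjusted p = 0.168) except with the replicate block (adjusted p = 0.0484), and it had differed by -0.53 without LPS. Gadd45b, a stress-induced signalling protein, fell by 0.52 and had a lower response of -0.66 (adjusted p = 0.000235). Ier3, an early survival gene, fell by 0.70, and its response difference of -0.46 passed only with the replicate block (adjusted p = 0.268 without and 0.027 with it). Mcl1, which encodes an anti-apoptotic BCL-2 protein, was higher by 0.16 at 1 h (0.09 and adjusted p = 0.149 against WT replicates 4 to 6 alone) and by 0.51 without LPS, and its response was lower by -0.35, a call lost under quantile normalization (-0.27). Zfp36, which encodes the mRNA-destabilizing protein tristetraprolin, overlapped between groups, at 14.49 to 14.96 in WT and 14.50, 14.63, 14.59, and 14.31 in the mutant. Its difference was -0.24 (adjusted p = 0.050), and the call was lost when any of Elk1-/-Elk4-/- replicates 1, 3, or 4 or WT replicates 5, 6, or 8 was left out, and against WT replicates 7 to 9 alone (-0.18, adjusted p = 0.192) or with the replicate block (adjusted p = 0.0972).

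The promoter windows of these genes were searched on both strands for the CArG box, the sequence bound by SRF, and for CCGGAA, a core bound by ETS factors. The windows are those of RefSeq, from 250 bases before to 50 after each start site in GRCm38.p6. Of all 32851 windows, 1.63% held a CArG box, 14.9% held CCGGAA, and 0.183% held both. A window was given for 31 of the 39 genes of the Egr, AP-1, and other immediate early lists, and 2 of the 31 genes (6.45%), Zfp36 and Egr2, had a CArG box in one. Of the genes called lower at 1 h, 43 had a window and 2 of these (4.65%) held a CArG box, as did 135 of the 9153 genes tested that had a window (1.47%), and none of the 74 genes called higher. The CCGGAA core was in a window of 4 of the 43 genes called lower (9.30%), 11 of the 74 called higher (14.9%), 7 of the 31 immediate early genes (22.6%), and 2978 of the 9153 genes tested (32.5%). Of 15 SRF-bound cytoskeletal genes with a window, 5 (33.3%) held a CArG box and 1 (6.67%) held CCGGAA. The stretches around the boxes of Zfp36 and Egr2 are given here because these were the immediate early genes with a box, with the motifs in capitals. Zfp36 was chosen by rule, and Egr2 after its values were seen. Zfp36 lies on the minus strand (chr7:28379267-28379296, 68 to 39 bases before the start). Egr2 is on the plus strand, and 2 of its windows were read at chr10:67537446-67537565 and chr10:67537749-67537868, each from 120 to 1 bases before the start, the first with a CCGGAA after the box.
Zfp36: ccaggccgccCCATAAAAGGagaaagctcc
Egr2, first start: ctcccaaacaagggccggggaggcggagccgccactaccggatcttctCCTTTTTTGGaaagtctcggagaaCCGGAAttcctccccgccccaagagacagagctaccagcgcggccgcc
Egr2, second start: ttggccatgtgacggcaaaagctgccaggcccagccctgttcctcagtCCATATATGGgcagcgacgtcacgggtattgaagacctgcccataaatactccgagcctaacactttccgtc

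Neither of these 2 genes was among those most reduced: Egr2 gave 0.08 and Zfp36 -0.24 at 1 h. Egr3, Fosl1, and Ier2, which fell, had no window and could not be searched. Only exact boxes inside the windows were counted, so the search cannot tell which of the reduced genes SRF binds. By chromatin immunoprecipitation, the paper reports constitutive SRF binding at the promoters of Egr1, Egr3, and Nr4a1. The cytoskeletal genes that SRF controls with its MKL cofactors moved in both directions. Of 14 tested, 3 fell (21.4%, against 26.2% of all genes tested) and 5 rose (35.7%, against 27.2%), none past a difference of 1, and none had a different LPS response, with a median of 0.06 at 1 h. Actb, the beta-actin gene, gave 0.05 (adjusted p = 0.569), and Vcl, which encodes the adhesion protein vinculin, rose by 0.36 at 1 h and by 0.27 without LPS. Under quantile normalization Actb rose by 0.14 (adjusted p = 0.0442).

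Of 12 negative regulators of MAP kinase signalling, 5 fell (41.7%, against 26.2% of all genes tested) and 2 rose (16.7%, against 27.2%), with a median of -0.18, and 3 had a lower LPS response (0.942% of all genes did), or 4 with the replicate block (33.3%, against 1.81%). Dusp5, a nuclear phosphatase of ERK, ran from 10.57 to 10.87 in WT and stood at 9.71, 9.70, 9.62, and 9.73 in the mutant (-1.03 ± 0.19, adjusted p = 1.49e-05), with no overlap. Dusp1, a phosphatase of p38 and JNK, fell by 0.49, and Dusp6, a cytoplasmic ERK phosphatase, gave 0.04 (adjusted p = 0.773), with 0.24 (adjusted p = 0.0397) against WT replicates 4 to 6 and -0.17 against WT replicates 7 to 9. Errfi1, an inhibitor of EGF receptor signalling, fell by 0.86 at 1 h and by 1.89 at 2 h, and its response difference of -0.78 (adjusted p = 0.116) passed with the replicate block (adjusted p = 0.0471). Spry1, a receptor tyrosine kinase inhibitor, fell by 0.67 and had a lower response of -0.90 (adjusted p = 0.00893), a call lost without Elk1-/-Elk4-/- replicate 2 or 3 or against WT replicates 7 to 9 alone.

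Of 16 NF-kB subunits and feedback genes, 8 fell (50.0%, against 26.2% of all genes tested) and none rose (27.2% of all genes), with a median of -0.16. The LPS response was lower for 2 (12.5%, against 0.942% of all genes). At 1 h 1 gene was called (6.25%, against 0.665% of all genes called lower). That gene was Nfkbid, which encodes the nuclear IkB protein IkBNS. It ran from 11.34 to 11.97 in WT, with a median of 11.79, and stood at 10.35, 10.31, 10.23, and 10.16 in the mutant. The difference was -1.45 ± 0.14 (adjusted p = 1.43e-12), and its LPS response was lower by -1.13 (adjusted p = 0.000172). Nfkbia, the IkBα gene, fell by 0.37 after an induction of 3.42 in WT and 3.27 in mutant cells. Tnfaip3, the gene of the deubiquitinase A20, was induced by 3.88 and 3.80 and did not pass at 1 h (-0.09, adjusted p = 0.573).

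Of 15 cytokine genes, 7 fell (46.7%, against 26.2% of all genes tested, namely Tnf, Il1a, Il1b, Csf2, Clcf1, Osm, and Tnfsf9) and 1, the IL-1 receptor antagonist gene Il1rn, rose (by 0.42, with 0.08 against WT replicates 4 to 6 and 0.76 against WT replicates 7 to 9), with a median of -0.21. Tnf, the gene of the central early inflammatory cytokine, stood at 16.12 to 16.37 in WT and 15.61, 15.72, 15.76, and 15.49 in the mutant. Its difference was -0.62 ± 0.11 (adjusted p = 2.93e-06), without overlap, and it was 0.07 without LPS. The response was lower by -0.69 (adjusted p = 0.00576), a call lost without Elk1-/-Elk4-/- replicate 4 (-0.63) or under quantile normalization (-0.48).

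Csf2, the GM-CSF gene, ran from 8.03 to 9.31 in WT and stood at 7.34, 7.77, 7.63, and 7.47 in the mutant, a difference of -1.14 ± 0.22 (adjusted p = 2.91e-05) that was -1.66 against WT replicates 4 to 6 and -0.61 against WT replicates 7 to 9. The sign changed with time, at 1.31 at 0.5 h and -1.96 at 2 h. Its lower response (-1.35, adjusted p = 0.0107) was lost without Elk1-/-Elk4-/- replicate 3 or against WT replicates 7 to 9 alone. Clcf1, an IL-6 family cytokine, fell by 0.90, and its response call of -1.03 was likewise lost against WT replicates 7 to 9 alone and without any of Elk1-/-Elk4-/- replicates 1, 2, or 3 or WT replicates 4 or 6. Il1a and Il1b, the interleukin-1 genes, fell by 0.63 and 0.44, but by 0.40 and with no call for Il1b (-0.15, adjusted p = 0.232) against WT replicates 7 to 9 alone. Il1b was induced by 6.15 in WT and 5.63 in mutant cells, its groups overlapped, and its adjusted p of 0.0352 rose above the threshold when any library other than WT replicates 5, 7, 8, and 9 was left out, and to 0.0767 with the replicate block.

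Il10, the gene of the anti-inflammatory cytokine, did not pass the test at 1 h, at 9.46 to 10.18 in WT and 9.55, 9.86, 9.98, and 9.78 in the mutant (0.01, adjusted p = 0.952). It was higher by 0.78 without LPS, and its response was lower by -0.77 (adjusted p = 0.0253), a call lost against WT replicates 7 to 9 alone and without Elk1-/-Elk4-/- replicates 1, 2, or 4 or WT replicates 5 or 6. For several other cytokines the call or sign depended on the WT libraries. Il12b, the IL-12 p40 gene, ran from 8.78 to 10.97 in WT, and its difference was -1.0 against WT replicates 4 to 6 (adjusted p = 0.000249) and 0.97 against WT replicates 7 to 9 (adjusted p = 0.000578). Il23a, the IL-23 p19 gene, gave -0.95 and 0.54. Il6 gave 0.36 (adjusted p = 0.171) against all WT libraries, -0.31 (adjusted p = 0.227) against WT replicates 4 to 6, and 1.02 (adjusted p = 0.000168) against WT replicates 7 to 9. Lif, another IL-6 family cytokine gene, gave 0.03, -0.25, and 0.31 (adjusted p = 0.0325) in the same order. No direction is given for these 4 genes.

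Among 13 chemokines, 5 fell (38.5%, against 26.2% of all genes tested) and 6 rose (46.2%, against 27.2%). The neutrophil attractants Cxcl2 and Cxcl3 fell and had lower responses. Cxcl1, another neutrophil attractant, did not. It gave 0.20 without passing at 1 h, and 0.38 (adjusted p = 0.0495) against WT replicates 7 to 9 alone. Its response difference was 0.10 with the replicate block (adjusted p = 0.926). Cxcl2 ran from 14.99 to 15.46 in WT and stood at 14.34, 14.53, 14.51, and 14.36 in the mutant, a difference of -0.79 ± 0.11 (adjusted p = 8.27e-08), and Cxcl3 fell by 0.92 (by 0.58 against WT replicates 7 to 9 alone). Their response differences of -0.68 and -0.91 did not pass against WT replicates 7 to 9 alone (adjusted p = 0.0685 and 0.333). That of Cxcl2 was also lost without Elk1-/-Elk4-/- replicate 1 or 4, and that of Cxcl3 without Elk1-/-Elk4-/- replicate 2 or 3 or WT replicate 4 or 6. Ccl22, a ligand of CCR4, fell by 0.90. In the other direction, the monocyte attractants Ccl2 and Ccl7 rose by 0.52 and 0.82. Cxcl10, an interferon-inducible ligand of CXCR3, ran from 11.96 to 12.76 in WT and stood at 13.56, 13.64, 13.55, and 13.64 in the mutant, a difference of 1.13 ± 0.15 (adjusted p = 9.55e-09) that was 0.05 without LPS. Its response was higher by 1.08 (adjusted p = 0.00117).

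Ifnb1, the interferon-beta gene (chr4:88522025-88522794), had the largest of the called increases in LPS response. Its level at 1 h ran from 7.51 to 8.40 in WT, with a median of 7.94, and was 9.73, 9.40, 9.54, and 10.05 in the mutant. Every mutant library lay above the highest WT library. The difference was 1.73 ± 0.14 (adjusted p = 2.00e-14), with 0.22 (adjusted p = 0.21) without LPS, 0.61 at 0.5 h, and 0.79 at 2 h. LPS raised Ifnb1 by 3.34 in WT and 4.85 in mutant cells, and this difference of 1.51 ± 0.20 (adjusted p = 8.71e-07) held its call in each fit without 1 library and against WT replicates 4 to 6 and 7 to 9 apart.

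Interferon-stimulated genes were also higher, but mostly from before the stimulus. Of 24 type I interferon and interferon-stimulated genes, 23 rose at 1 h and 21 were higher without LPS, where 27.2% of all genes tested were higher at each time (26.2% and 24.6% were lower at 1 h and without LPS). The median difference was 0.94 at 1 h, 11 were called (45.8%, against 0.867% of all genes called higher), and Ifnb1 was the 1 gene of the list with a different LPS response. Ifit1, which encodes an antiviral RNA-binding protein, ran from 10.34 to 11.00 in WT and stood at 12.24, 12.25, 12.62, and 12.38 (1.63 ± 0.16, adjusted p = 2.70e-12), with 1.13 without LPS. Irf7, a factor that amplifies interferon production, differed by 1.44 at 1 h and 1.54 without LPS, and Isg15, a ubiquitin-like modifier, by 0.64 and 0.95. Irf1, an interferon regulatory factor induced by 2.69 in WT cells, was the exception at -0.01.

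Genes of TLR4 signalling showed changes under 1. Of 20 tested, 7 fell (35.0%, against 26.2% of all genes tested), 3 rose (15.0%, against 27.2%), and 2 had a lower LPS response (10.0%, against 0.942%): Ticam1, which encodes the adaptor TRIF (-0.57, adjusted p = 8.27e-07), and Irf3, which encodes a factor that acts on the interferon-beta promoter (-0.46, adjusted p = 1.45e-05). Irf3 ran from 9.79 to 10.08 in WT and stood at 9.35, 9.41, 9.34, and 9.29. Tlr4, the LPS receptor gene, rose by 0.65 at 1 h and by 0.56 without LPS, from 11.19 to 11.55 in WT to 11.91, 11.96, 12.17, and 12.04, a difference present at both times.

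**Figure D3:**
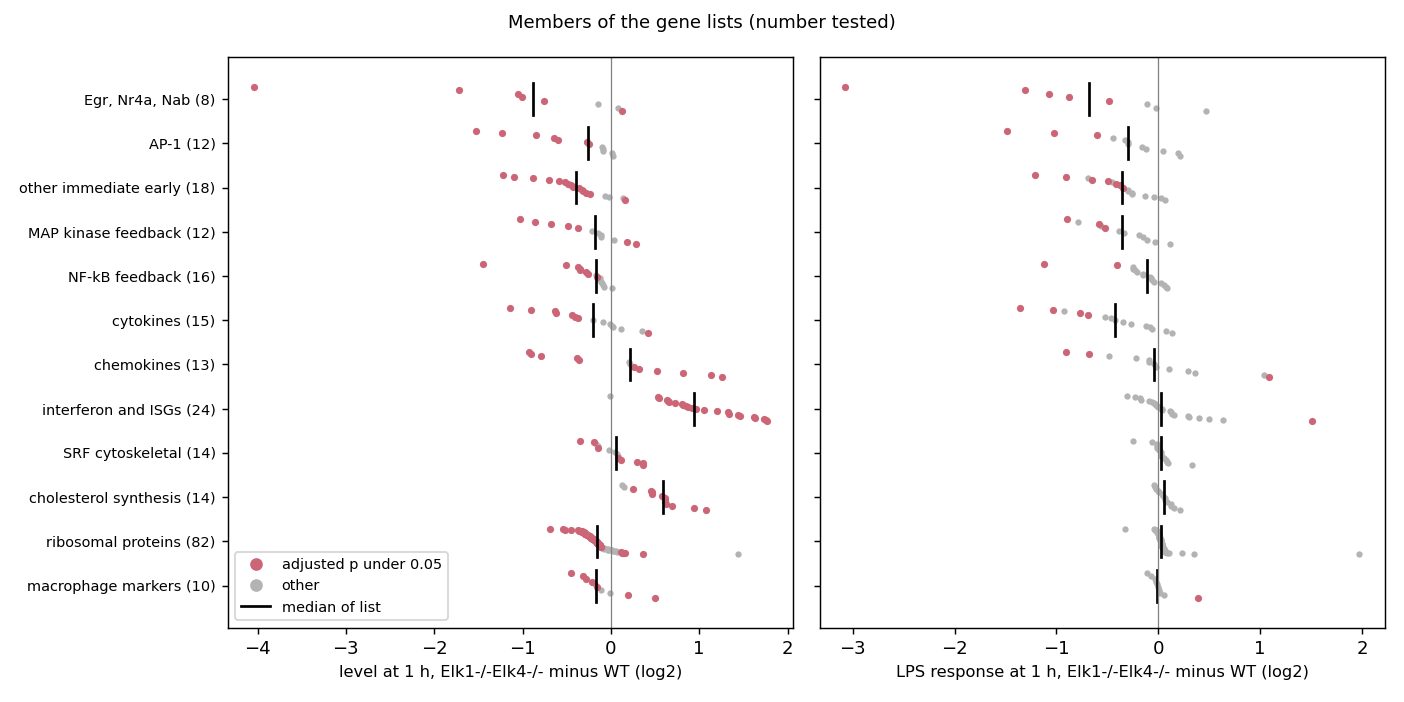
Members of 12 gene lists (1 point per gene tested, number in brackets) by their Elk1-/-Elk4-/- minus WT difference in level at 1 h (left, log2) and in LPS response (right, log2), with red for an adjusted p below 0.05 and a black bar at the list median. The Egr, Nr4a, and Nab list has medians below 0 in both panels (-0.88 at 1 h), whereas the interferon list (0.94) lies to the right at 1 h.

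Other genes with a called response difference lay outside the lists. Olr1, the scavenger receptor LOX-1 for oxidized LDL, ran from 8.44 to 9.58 in WT, with a median of 9.25, and stood at 7.01, 7.33, 7.22, and 7.63 in the mutant. LPS raised it by 4.81 in WT and 2.76 in mutant cells, a difference in response of -2.04 ± 0.26 (adjusted p = 4.72e-07). Tnfsf4, the OX40 ligand gene, ran from 8.11 to 9.51 in WT and stood at 7.14, 7.27, 7.02, and 7.60, with a response lower by -1.46 (adjusted p = 0.00148). Their differences were -2.26 and -1.99 at 2 h and -0.04 and -0.12 at 0.5 h.

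Fjx1, a secreted kinase-like protein, differed by -0.96 at 1 h and by -1.02 in response. It reached the filter on low values in no mutant library and was tested only through the genotypes where it is higher, so its test is no support. Flrt3, a cell adhesion protein, and Arc, an activity-regulated cytoskeletal protein, had responses lower by -1.21 and -1.13, calls that were lost without Elk1-/-Elk4-/- replicate 3 (adjusted p = 0.0753 for both) or against WT replicates 7 to 9 alone, and for Flrt3 also without Elk1-/-Elk4-/- replicate 1. The Arc groups overlapped at 1 h. The 1 h differences of both passed by adjusted p against WT replicates 4 to 6 (-1.30 and -0.83) and not against WT replicates 7 to 9 (-0.28 and -0.04). Bcl2a1a, a BCL-2 family gene with near-identical copies among which reads may be divided, had a lower response of -1.13 that also did not pass against WT replicates 7 to 9 alone (-0.83). Vcam1, a leukocyte adhesion receptor, was higher by 1.93 without LPS and 0.88 at 1 h, and its response was lower by -1.06, a call lost against WT replicates 7 to 9 alone (-0.90).

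Higher responses were few. Id3, an inhibitor of basic helix-loop-helix factors, ran from 8.58 to 9.05 in WT and stood at 9.57, 9.57, 9.44, and 9.80 in the mutant (response 1.04, adjusted p = 0.00311). Slc5a3, a myo-inositol transporter, ran from 6.79 to 7.51 and stood at 7.76, 7.87, 8.04, and 7.67 (1.03, adjusted p = 8.71e-07). Il1f9, the IL-36 gamma gene, ran from 2.35 to 2.67 in WT and stood at 4.02, 3.91, 4.12, and 4.00 (response 1.02). Il1f9 reached the filter on low values in mutant libraries only, so it had to differ, and its test is no support. For Id3 and Slc5a3 the groups did not overlap.

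Over the 380 genes induced by LPS in WT cells, the mutant was lower for 172 (45.3%) and higher for 52 (13.7%) by adjusted p, against 26.2% and 27.2% of all genes tested, with a median of -0.17. The LPS response was lower for 59 (15.5%, against 0.942% of all genes) and higher for 4 (1.05%, against 0.404%), or 90 (23.7%, against 1.81%) and 9 (2.37%, against 1.13%) with the replicate block. The list was chosen with the same WT libraries that enter the comparison, so it was also chosen in 3 of the WT replicates and measured against the other 3. Chosen in WT replicates 4 to 6 and measured against 7 to 9, 28.2% of 426 genes were lower and 25.4% higher, where 22.6% and 23.9% of all genes tested were against the same WT libraries, and the median was -0.02. Chosen in 7 to 9 and measured against 4 to 6, 60.1% of 336 genes were lower and 9.82% higher, where 26.8% and 27.2% of all genes tested were, and the median was -0.33. The share with a lower LPS response was 7.75% in the first split and 34.2% in the second, with no share over all genes to set beside them. The shift of induced genes thus differed between the splits. Both the list and the control libraries changed between them, and their parts were not tested.

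**Figure D4:**
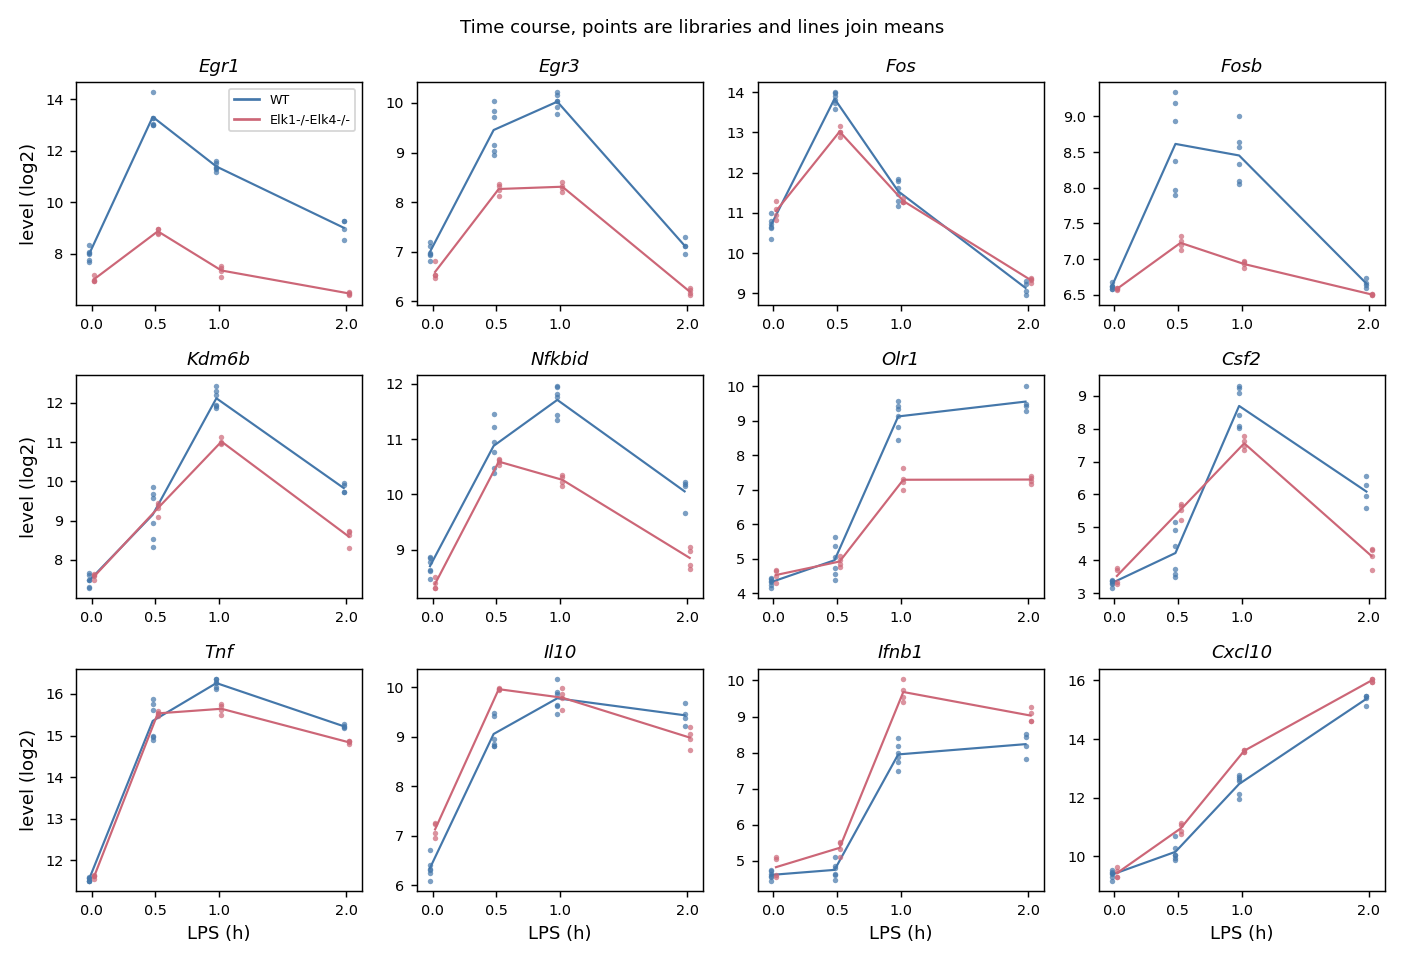
Levels (y axis, log2 as deposited, with its own range in each panel) of 12 genes by hours of LPS, with 1 point per library and lines through the means of WT (blue) and Elk1-/-Elk4-/- (red) cells. The WT group has 4 libraries at 2 h and 6 at each other time. Egr1 has a lower mutant mean at every time (difference -0.97, -4.45, -4.04, and -2.55), Csf2 crosses (1.31 at 0.5 h, -1.14 at 1 h), and Ifnb1 has its largest difference at 1 h (1.73).

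The kinase-dead Map3k8 D270A mutation, which inactivates TPL-2, was compared with the same WT libraries at 1 h, so the values are set side by side and no overlap is given. Egr1 differed by -3.24 in Map3k8 D270A cells and by -4.04 in Elk1-/-Elk4-/- cells, Egr3 by -1.69 and -1.72, Fosb by -1.29 and -1.52, and Kdm6b by -1.31 and -1.10. Nfkbid differed by -0.62 and -1.45 and Olr1 by -0.88 and -1.84. Fos differed by -1.16 and -0.24, Zfp36 by -0.96 and -0.24, Ptgs2, the COX-2 gene, by -1.12 and -0.12, Lif by -1.97 and 0.03, and Il1b by -1.22 and -0.44. Ifnb1 was higher in both (1.25 and 1.73), and Cxcl10 differed by 0.27 and 1.13. Id3 differed in sign, at -0.77 and 0.81. None of these differences between the mutants was tested.

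The genes with the largest rises at 1 h were of another kind, and their differences were present without LPS. Ngp, Ltf, S100a9, S100a8, Lcn2, and Camp encode granule and cytosolic proteins of neutrophils. Ngp ran from 3.76 to 5.19 in WT and stood at 8.62, 8.43, 8.74, and 8.53 in the mutant (4.13 ± 0.26, adjusted p = 2.92e-19), and 4.04 was the difference without LPS. Ltf, the lactoferrin gene, ran from 3.54 to 4.80 and stood at 8.32, 8.0, 8.17, and 8.09. The groups were separate by several units for both.

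S100a9 differed by 3.64, S100a8 by 2.86, Lcn2 by 2.84, Camp by 2.20, and Retnlg, another neutrophil transcript, by 1.10. Of the 13 neutrophil markers, 10 passed the filter on low values, 3 of them (Camp, Retnlg, and Cxcr2) through mutant libraries only, so that these had to differ. The other 7 were S100a8, S100a9, Ngp, Ltf, Lcn2, Mmp8 (0.35, adjusted p = 0.0865), and Mmp9 (-0.55, adjusted p = 0.156). The summed level of the list, on the log2 scale, was 9.48 to 10.53 in WT and 11.17 to 11.38 in the mutant at 1 h. The defining markers Elane, Mpo, and Ly6g were too low to be tested in either group, with means of -0.14, 0.72, and -0.22 in WT and 0.44, 1.76, and 0.19 in the mutant. The same values stood beside the higher interferon-stimulated genes, chemokines, and Il1f9, and their part in those results was not tested. In bulk RNA, more cells of a type and more RNA per cell cannot be told apart.

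Other transcripts that were higher at both times were Ctse, the cathepsin E gene (5.31 to 5.98 in WT, 9.70, 9.81, 9.95, and 9.55 in the mutant, difference 4.09), the chitinase-like gene Chil3 (3.11), the monocyte marker Ly6c2 (2.04, with a response difference of 0.34 that passed only with the replicate block, adjusted p = 0.0467), and the protease gene Adamts1 (2.29). Cholesterol synthesis genes were higher too, 12 of 14 at 1 h and 13 without LPS (27.2% of all genes tested at each time), with a median of 0.59 and none with a different LPS response, except Hmgcs1 with the replicate block (0.21, adjusted p = 0.0235). Hmgcs1, which encodes an early enzyme of the pathway, differed by 1.07, Idi1 by 0.94, and Sqle by 0.70.

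The macrophage identity of the cultures was seen in both genotypes. Macrophage markers such as Csf1r, Adgre1, Cd68, and Lyz2 stood above 15 in the means of both groups at 1 h, and the summed level of the 10 markers present was 18.77 to 18.95 in WT and 18.56 to 18.64 in the mutant. Of these 10, 5 fell and 2 rose, none past 1, where 26.2% and 27.2% of all genes tested did. Dendritic cell markers had a summed level of 10.68 to 11.96 in WT and 9.90 to 10.12 in the mutant. Itgax, the CD11c gene, made up nearly all of that sum, with means of 11.40 and 9.97, and fell by 1.43 at 1 h and by 1.49 without LPS. Of the other 3 tested, Xcr1 rose by 0.27 (adjusted p = 0.0242), and Zbtb46 and Ccr7 did not pass (-0.05 and -0.02). The mast and basophil list ran from 4.97 to 6.53 and from 6.42 to 7.43, and the B cell list from 5.54 to 6.38 and from 6.46 to 6.88. Each had 1 gene tested, Kit (means of 5.86 and 6.90) and Cd79b (5.81 and 6.49), and of their other genes the mast and basophil ones had means below 0 and the B cell ones below 2.5 in both groups. No marker of T and NK cells or erythroid cells was high enough to be tested.

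**Figure D5:**
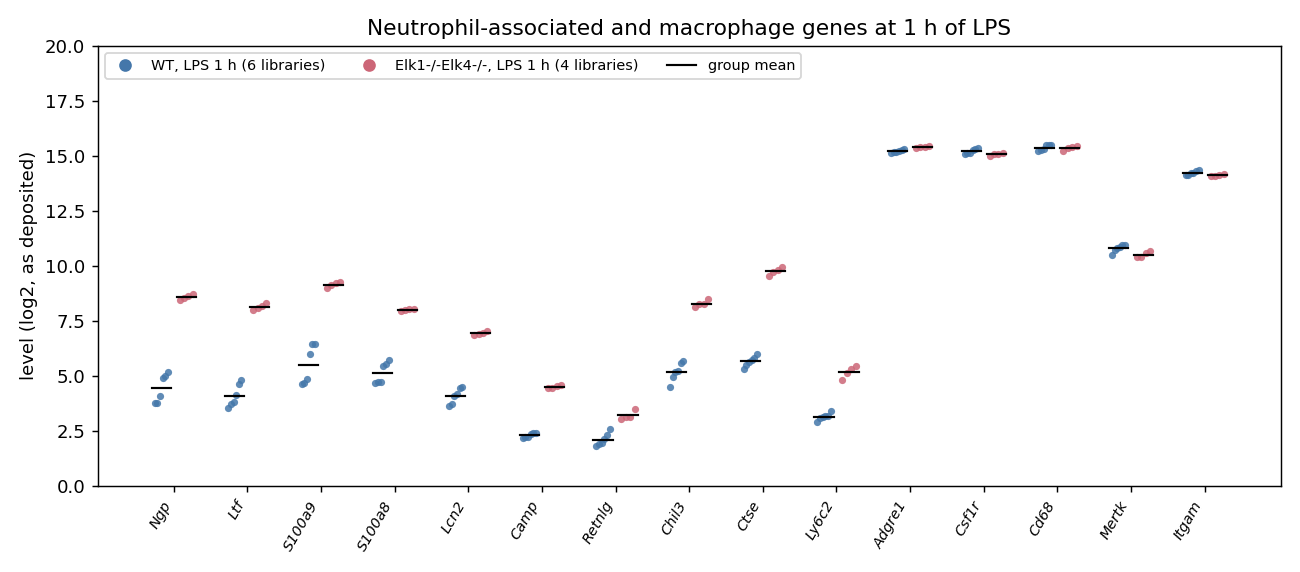
Levels at 1 h of LPS (y axis, log2 as deposited) of neutrophil-associated and macrophage genes, with 1 point per library, blue for the 6 WT and red for the 4 Elk1-/-Elk4-/- libraries, and a bar at each group mean. Mutant libraries of Ngp lie between 8.43 and 8.74 against 3.76 to 5.19 in WT, while macrophage markers differ by less than 1.

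Macrophage-expressed genes were also among those lower at both times. Apoe, the apolipoprotein E gene, ran from 15.98 to 16.75 in WT and stood at 14.52, 14.73, 14.75, and 14.65 in the mutant (-1.67 ± 0.14, adjusted p = 7.63e-14), with -1.70 without LPS. C1qa, a complement gene, fell by 1.10 at 1 h and by 1.12 without LPS, and Vegfa, an angiogenic factor gene, by 1.10 and 0.98. Cx3cr1, the fractalkine receptor gene, fell by 1.01 with overlapping libraries. Lrrc32, which encodes the TGF-beta docking protein GARP, fell by 2.35 and Mt2, a metallothionein gene, by 2.17, with response differences of -0.72 and -0.78 that passed only with the replicate block (adjusted p = 0.000233 and 0.000513). Prex2, an exchange factor for Rac, fell by 1.87. Amd2 (-2.97), Rps15a-ps6 (-2.12), and BC002163 (-1.95) have close copies or are pseudogenes, and their values are uncertain. WT replicate 6 stood at 6.08 for Amd2, where the WT median was 9.10.

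Of 20 genes tested within 5 Mb of Elk1, none was called lower or higher at 1 h, and 6 fell (30.0%) and 8 rose (40.0%) by adjusted p, against 26.2% and 27.2% of all genes tested. Timp1, 0.0632 Mb from Elk1, fell by 0.94. Of 68 within 5 Mb of Elk4, 1 was called lower (1.47%, against 0.665% of all genes) and 3 higher (4.41%, against 0.867%). The lower gene, Mfsd4a (-1.07), overlaps Elk4 by 3643 bases, and although the study's methods describe the reads as strand-specific, they do not say whether the counting used strand, so reads of the 2 genes may not be separable. The higher genes were Ctse, 0.369 Mb away, Cd55, which encodes a complement regulator, at 1.58 Mb (1.12), and Chil1 at 2.17 Mb (1.52), which reached the filter on low values in mutant libraries only and whose response difference of 0.37 passed only with the replicate block (adjusted p = 0.0363).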

How the data were processed

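RNA was taken from BMDMs without LPS and after LPS, and TruSeq libraries were sequenced single-end. Per the study's methods and the submitters' notes, reads were aligned to mm10 RefSeq genes with STAR and counted with RSEM (the notes give STAR 2.5.1b, RSEM 1.2.29, and DESeq2 1.10.1, and the methods other versions of the first 2). The authors deposited log2 normalized values, 1 per gene and library, for 18098 genes. The transformation is not stated, the values hold no counts, and the depth of each library is therefore unknown and no counting interval was given.

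The test was that of limma 3.58.1 (R 4.3.3), applied to the values as deposited in 1 fit of the 62 WT, Map3k8 D270A, and Elk1-/-Elk4-/- libraries of all times, without a trend. Testing was limited to the 11884 genes that reached a linear value of 10 in 4 or more libraries, and p-values were adjusted by the Benjamini-Hochberg method. The other 6214 genes were low, with a median level of -1.53. The code was tested on simulated data. Figures were drawn with matplotlib 3.10.9 in Python 3.11.15.

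The members and gene lists were chosen with earlier results of these data known. Named genes were the ternary complex factors, members of the lists, the 10 largest non-overlapping differences in each direction at 1 h, and the 10 largest called response differences. Vcam1, Apoe, Itgax, C1qa, Cx3cr1, Bcl2a1a, Fjx1, and the genes near Elk1 and Elk4 fell outside it and were picked with their values in view. Replicate numbers came from the titles. Deviations of same-numbered libraries without LPS and at 1 h correlated at 0.373 to 0.716 in WT and 0.139 to 0.470 in Elk1-/-Elk4-/- cells. Differently numbered libraries gave -0.466 to 0.572 in WT and -0.347 to 0.116 in Elk1-/-Elk4-/- cells. The own number gave the highest correlation for 4 of 6 WT and 4 of 4 Elk1-/-Elk4-/- libraries without LPS. The numbers served to pair the samples for the LPS response, as read from the data and not from the labels, and in WT this pairing is uncertain. Alternatives were other thresholds, filters, and scalings, limma with a trend or robust, the replicate block, fewer libraries in the fit, WT replicates 4 to 6 or 7 to 9 alone, and leaving out each replicate.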

Additional observations from a re-analysis of the deposited data

Results flagged for a closer look

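In the genes named above, 15 of 220 groups at 1 h (6.82%) held a library far from the others of its group by Dixon's criterion, and chance alone gives about 1 in 20. In Elk1-/-Elk4-/- cells these were replicate 1 for Elk1 (6.42) and Fos (11.36), replicate 2 for Srf (10.39) and Hmgcs1 (12.47), replicate 3 for Mcl1 (15.35), Isg15 (11.64), Retnlg (3.51), and Plaur (11.69), and replicate 4 for Mkl1 (11.12), Ier2 (10.26), and Clcf1 (7.02). In WT cells they were replicate 6 for Mkl2 (9.93), Amd2 (6.08), and Hmgcs1 (11.24), and replicate 4 for Prex2 (4.91). The median distance between pairs of libraries at 1 h was 0.170 in the mutant and 0.245 in WT.

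The LPS response at 1 h differed between the genotypes, by a test of the difference itself, for 21 genes. The mutant response was lower for the transcription factor genes Egr1 (-3.07), Fosb (-1.49), Egr3 (-1.31), Nr4a3 (-1.07), and Fosl1 (-1.02), for the cytokine and ligand genes Tnfsf4 (-1.46), Csf2 (-1.35), and Clcf1 (-1.03), for the receptor and adhesion genes Olr1 (-2.04), Flrt3 (-1.21), and Vcam1 (-1.06), and for Kdm6b (-1.21), Arc (-1.13), Nfkbid (-1.13), Bcl2a1a (-1.13), and Fjx1 (-1.02), which reached the filter on low values in no mutant library. It was higher for Ifnb1 (1.51), Cxcl10 (1.08), Id3 (1.04), Slc5a3 (1.03), and Il1f9 (1.02), the last of which passed the filter on low values through mutant libraries only.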

How the results depend on the processing

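Counts of lower and higher genes at 1 h, without LPS, and in the LPS response (79, 103, 55, 92, 16, and 5) became 292, 369, 233, 366, 48, and 12 at a 1.5-fold threshold, 3109, 3237, 2926, 3228, 112, and 48 with adjusted p alone, and 205, 262, 154, 254, and 38 (first 5) at a threshold of 0.69. With WT replicates 4 to 6 only, lower genes at 1 h were 127 and lower responses 30, and with WT replicates 7 to 9 only lower responses were 7; 15 and 7 of the 16 were shared. Il12b (0.97) and Il23a (0.54) reversed against WT replicates 7 to 9. Leaving out 1 replicate gave 71 to 91 lower and 89 to 110 higher genes at 1 h, 47 to 65 lower without LPS (the higher count there stayed within 1.5 times its value), and 10 to 21 lower and 3 to 6 higher responses, with 10 lower responses without Elk1-/-Elk4-/- replicate 3 and 3 higher without its replicate 3 or 4. LPS-induced genes chosen in WT replicates 4 to 6 and measured against 7 to 9 were lower in 28.2% and higher in 25.4% (22.6% and 23.9% of all genes tested). Their response was lower in 7.75% and higher in 2.35%. Chosen in 7 to 9 and measured against 4 to 6, 34.2% had a lower response. No response share over all genes is given for these splits, so these response shares are not read as results about induced genes. At a 4-fold induction in all WT libraries 2.00% had a higher response.

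With the replicate block as a random effect the counts were 78, 103, 55, 92, 16, and 5, and as a fixed block 16 and 5 for the response (215 and 134 by adjusted p alone); the random block ended the 1 h calls of Zfp36 (adjusted p = 0.0972), Dusp2 (0.0683), Il1b (0.0767), and Arc (0.0688). Trend, robust, other filters, both scalings, and fits of WT and Elk1-/-Elk4-/- libraries alone kept the counts within 1.5 times. With WT and Elk1-/-Elk4-/- libraries alone the 1 h calls of Fos (adjusted p = 0.126), Zfp36 (0.0554), and Arc (0.105) and the response calls of Elk1 (0.110), Fos (0.148), Fosl1 (0.106), Cxcl3 (0.0842), and Flrt3 (0.0503) were lost. Without a filter or under quantile normalization those of Zfp36 (0.0731 and 0.100), Il1b (0.0538 and 0.0827), and the Nab2 response (0.0674 and 0.0872) were lost. Against WT replicates 7 to 9 the 1 h call of Dusp2 was lost (-0.23, adjusted p = 0.0531). Counted as pairs of a named gene and an alternative, 54 ended a call at 1 h, 8 made one, 2 reversed the sign, and 2454 left the result as it was. For the response, 75 pairs ended a call and 809 kept it. The cause was not tested. Lower responses of Egr1, Egr3, Fosb, Ier2, Kdm6b, Gadd45b, Nfkbid, Olr1, Tnfsf4, Ticam1, and Irf3 held their calls by adjusted p in all alternatives. So did the higher responses of Ifnb1, Cxcl10, Id3, and Slc5a3. DESeq2, edgeR, and a pseudocount were not run because the values are on a log2 scale. Depth is unknown, so the limit it sets on low genes could not be given.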

Other observations

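Ribosomal protein genes were lower in Elk1-/-Elk4-/- BMDMs at 1 h for 56 of 82 tested (68.3%, against 26.2% of all genes tested) and higher for 5 (6.10%, against 27.2%), with a median of -0.16, and without LPS for 58 and 5. None was called, and apart from Rps27 (1.44, adjusted p = 0.093) their differences ran from -0.69 to 0.36. Of 11 histone genes tested, 7 fell (63.6%) and 1 rose (9.09%) at 1 h. Cell cycle genes gave 1 lower (4.17%) and 2 higher (8.33%) of 24, both under the shares over all genes, and MHC class II genes 1 lower of 7 (14.3%). Of 13 genes for growth factors, proteases, and lipid mediators, 6 fell (46.2%) and 2 rose (15.4%), with Vegfa and Plaur (-0.62, with a response difference of -0.34 that passed only with the replicate block, adjusted p = 0.0484), the urokinase receptor gene, among those that fell. Of 112 genes repressed by LPS in WT cells, 56 were higher (50.0%) and 2 lower (1.79%) in the mutant at 1 h, but the list was chosen with the same WT libraries. The summed level of rRNA and small RNA transcripts varied widely between libraries at 1 h, from 15.46 to 19.45 in WT and from 15.2 to 18.4 in the mutant.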
